A study of Mus musculus with 6 samples.

Results

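The genes described here are 8 chemokines that mainly direct lymphocytes or are made constitutively in tissues, Cxcl9, Cxcl10, Cxcl11, Cxcl12, Cxcl13, Cxcl14, Cxcl16 and Cx3cl1, together with Cxcr4, the receptor of CXCL12. They were chosen by name, and all 9 were found among 53546 genes. RNA was sequenced from primary non-parenchymal cells of the liver, which include macrophages, lymphocytes, stellate cells and endothelium, of male mice. The groups were 3 wild type and 3 SRA-/- libraries, the latter from mice that lack scavenger receptor A, a macrophage receptor for modified lipoproteins encoded by Msr1. Mice of both genotypes had received acetaminophen, a drug that injures hepatocytes at high dose, at 400 mg/kg into the peritoneum, and RNA was taken 6 h later. Strain and age do not appear in the labels, and libraries of uninjured liver were not analysed here, so each value compares 2 genotypes after the same injury. The titles call the replicates biological without naming the animals, so p-values measure only the spread between these libraries.

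Chemokines are small secreted proteins that guide leukocytes along gradients through G protein-coupled receptors. CXCL9, CXCL10 and CXCL11 are induced by interferons and share the receptor CXCR3 on activated T cells and NK cells. CXCL12 is made by stromal and endothelial cells and retains or attracts CXCR4-bearing cells, among them B cells, stem cells and ageing neutrophils. CXCL13 draws B cells through CXCR5. CXCL16 and fractalkine, the product of Cx3cl1, are made as membrane-anchored proteins that are shed by ADAM10 and ADAM17 and bind CXCR6 and CX3CR1.

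The libraries held 23757203 to 44003902 counts. Each mate of a read pair was counted on its own, so 6 counts, or about 3 fragments, correspond to 0.136 to 0.253 CPM (counts scaled to a common library size). Stab2, a scavenger receptor of the sinusoidal endothelium, was abundant at 576 to 1030 CPM, and listed hepatocyte genes took 3.27% to 9.82% of the counts. Msr1 gave 38.6, 73.5 and 114 CPM in wild type replicates 1 to 3 and 40.2, 33.6 and 42 CPM in the SRA-/- replicates, which edgeR fitted as a log2 fold change of -0.96 ± 0.33 (SE; adjusted p = 0.9999). The disrupted part of Msr1 is not stated, so counts over the whole gene do not check the labels. Wild type replicate 1 stood apart, with the lowest summed interferon target genes (434 CPM, against 739 to 1350 CPM elsewhere) and Kupffer cell markers (753 CPM, against 1070 to 1990 CPM). Summed pancreatic acinar markers were 463 to 894 CPM in the wild type libraries, 335 CPM in SRA-/- replicate 2 and 4.68 and 3.36 CPM in SRA-/- replicates 1 and 3.

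Levels were compared between genes as CPM per kb of annotated exon. Cxcl10 had the highest level, with 36.1 ± 18.3 CPM per kb in wild type and 54.1 ± 19.3 in SRA-/- libraries (SD, n = 3 each). Cxcl12 followed at 17.8 ± 2.38 and 17.5 ± 3.19, and Cxcr4 at 6.38 ± 2.84 and 14.2 ± 1.18 CPM per kb (SD, n = 3 each). Cxcl10 was above Cxcl12 in 5 of 6 libraries, the exception being wild type replicate 1. Cxcl9, Cxcl13 and Cxcl16 formed a middle tier, with means over all libraries of 6.69, 6.33 and 5.15 CPM per kb. Their order was not kept from library to library, Cxcl9 being above Cxcl13 in 3 of 6 libraries and Cxcl13 above Cxcl16 in 4 of 6. Cxcl14 (2.63 CPM per kb), Cx3cl1 (0.688) and Cxcl11 (0.283) had the lowest means and kept that order among themselves in all 6 libraries. Cxcl13 nevertheless lay below Cxcl14 in SRA-/- replicate 1 (2.02 against 3.67) and in wild type replicate 3 (3.48 against 3.53). Cxcl10 ranked above 96.7% of tested genes by this measure, and Cxcl11 above 11.1%. Exon length included bases shared with a gene on the other strand, where reads were assigned to neither gene. These were 41.7% of the exon bases of Cxcl11, 18.3% of those of Cxcl16 and 5.91% of those of Cxcl10. Levels of these genes therefore tend to be understated. The order of Cx3cl1 and Cxcl11, and of Cxcl13 and Cxcl16, may depend on it.

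**Figure D1:**
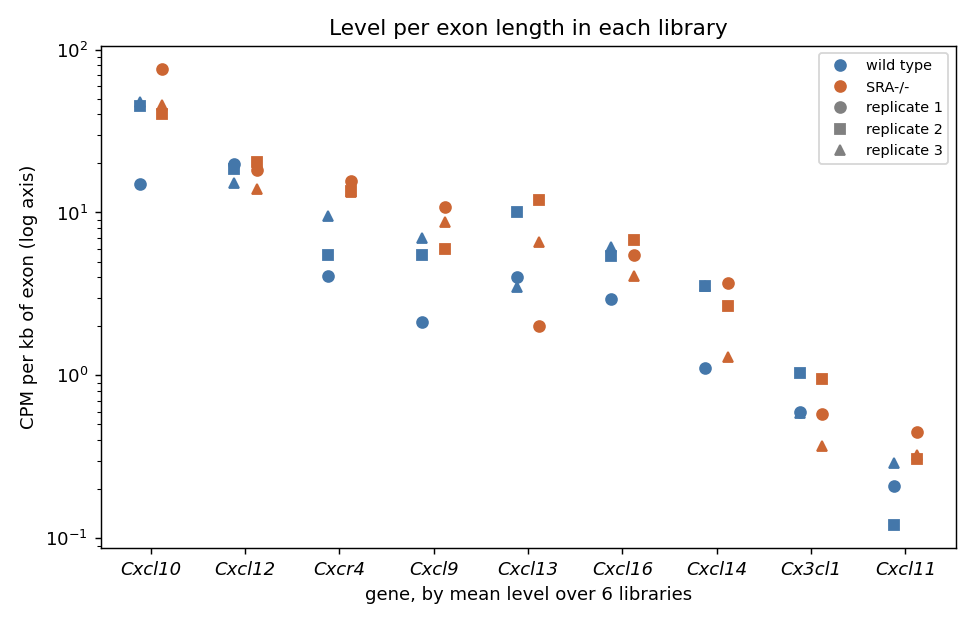
Level of each gene in each library, in CPM per kb of exon on a log axis, with genes ordered by their mean over the 6 libraries. Blue points are wild type and orange points SRA-/- libraries, and the marker shape gives the replicate number. Cxcl10 and Cxcl12 lie at the top and Cxcl11 at the bottom in both genotypes.

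The stretches upstream of Cxcl9 and Cxcl10, whose values were the most alike across libraries, and of Cxcr4 and Cxcl12, a receptor and ligand that differed in their behaviour, are shown as the 250 bases before the transcription start. Of the 9 genes 7 matched RefSeq's promoter table, which is on build GRCm38.p6, so these coordinates are of that build and not of mm39. Capitals mark matches to the interferon-stimulated response element core (GAAA, any 2 bases, GAAA) and to the kB consensus, both searched on both strands, and to TATAAA on the sense strand.
Cxcl10, chr5:92348890-92349139, minus strand: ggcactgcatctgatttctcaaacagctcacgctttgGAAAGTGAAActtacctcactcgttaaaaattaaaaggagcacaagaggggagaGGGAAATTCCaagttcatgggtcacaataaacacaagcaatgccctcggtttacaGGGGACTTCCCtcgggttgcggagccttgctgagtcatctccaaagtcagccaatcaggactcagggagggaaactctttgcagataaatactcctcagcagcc
Cxcl9, chr5:92328080-92328329, minus strand: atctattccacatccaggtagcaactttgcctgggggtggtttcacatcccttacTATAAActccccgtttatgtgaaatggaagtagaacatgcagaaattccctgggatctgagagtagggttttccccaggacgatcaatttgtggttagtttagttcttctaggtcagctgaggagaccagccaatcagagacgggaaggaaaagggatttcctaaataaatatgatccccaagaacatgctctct
Cxcr4, chr1:128592300-128592549, minus strand: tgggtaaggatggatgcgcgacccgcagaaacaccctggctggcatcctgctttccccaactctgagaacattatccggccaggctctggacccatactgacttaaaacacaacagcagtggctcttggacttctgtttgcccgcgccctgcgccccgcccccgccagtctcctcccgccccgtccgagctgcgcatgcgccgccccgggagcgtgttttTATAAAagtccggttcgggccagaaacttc
Cxcl12, chr6:117168285-117168534, plus strand: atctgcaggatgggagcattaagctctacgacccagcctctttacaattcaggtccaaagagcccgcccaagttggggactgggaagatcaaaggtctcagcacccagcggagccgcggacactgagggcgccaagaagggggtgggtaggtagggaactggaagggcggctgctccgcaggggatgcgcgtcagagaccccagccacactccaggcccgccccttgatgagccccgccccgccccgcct

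Cxcl10 held 1 match to the interferon-stimulated element core, at positions -213 to -204 from the start, and 3 to the kB consensus, at -159 to -150 and, overlapping each other, at -104 to -94. Among the other matched genes Cxcl14 also held 1 match to the interferon-stimulated element core, at -172 to -163. Cxcl9, Cxcr4 and Cxcl12 held none of the interferon or kB letters, which says only that they are not in this window. TATAAA lay at -30 to -25 in Cxcr4 and at -195 to -190 in Cxcl9. Of 32851 promoter windows of this length, 2.98% held the interferon-stimulated element core, 7.25% the kB consensus and 7.59% TATAAA. The stretches of Cxcl9, Cxcl10 and Cxcl13 had 44.4%, 48% and 42% G and C, below the median window at 52.4%. Those of Cxcl14, Cxcr4, Cxcl12 and Cx3cl1 lay above it, at 59.6%, 61.2%, 64.4% and 64.8%. A match describes the sequence and is not a site of binding.

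All 9 genes passed the filter on low counts. With edgeR's quasi-likelihood test and Benjamini-Hochberg adjustment over 20541 tested genes, 0 of the 9 changed between genotypes, where 10 genes (0.0487%) did over the whole table, 0.0341% higher and 0.0146% lower. DESeq2 also called 0 of them, and limma-voom with quality weights called 1, Cxcr4. At an unadjusted p under 0.05 by edgeR there was 1 of 9, again Cxcr4, against 3.22% of all tested genes (2.32% higher and 0.896% lower). DESeq2 gave 2 of 9 at that p, Cxcr4 and Cxcl9, against 721 of 20541 genes. Limma-voom gave 4 of 9, Cxcr4, Cxcl11, Cxcl9 and Cx3cl1, the last below 0, against 2392 of 20541 genes. Of the 9 log2 fold changes by edgeR 6 were above 0. Their median was 0.22, against 48.3% above 0 and a median of -0.01 over all tested genes. CPM did not overlap between the groups for 2 genes, Cxcr4 and Cxcl11, both higher in SRA-/- libraries, against 7.3% of all tested genes (3.97% higher and 3.33% lower). In bulk RNA, more cells of a type and more RNA per cell cannot be told apart.

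**Figure D2:**
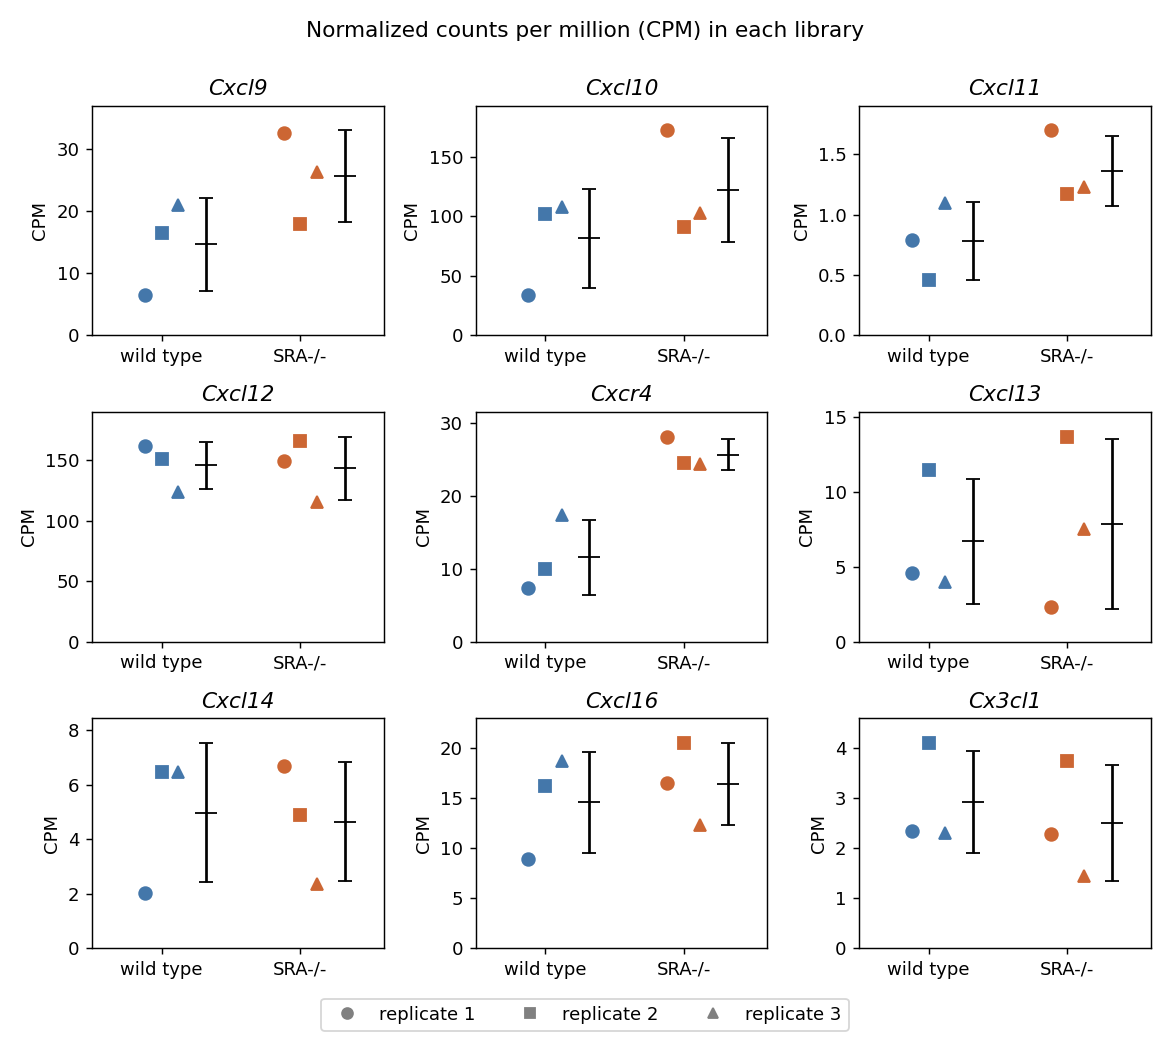
CPM of each gene in each library, on linear axes from 0, with wild type in blue, SRA-/- in orange and marker shape for the replicate number. The black bars beside the points are the mean and SD (n = 3). Only Cxcr4 and Cxcl11 show all SRA-/- points above all wild type points, and Cxcl12 lies between 115 and 166 CPM in every library.

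Cxcr4, the receptor (chromosome 1, 128515936 to 128520030, mm39, minus strand), had the lowest p of the 9 genes. Wild type replicates 1, 2 and 3 gave 215, 262 and 584 counts, and SRA-/- replicates 1, 2 and 3 gave 1290, 733 and 535. As CPM these were 7.39, 9.95 and 17.3 against 28.1, 24.5 and 24.3. The 3 SRA-/- libraries lay close together and above every wild type library, while the wild type libraries ranged widely, with replicate 3 nearest to the SRA-/- values. Mean Cxcr4 was 11.5 ± 5.14 CPM in wild type and 25.6 ± 2.13 CPM in SRA-/- libraries (SD, n = 3 each). The fitted difference was 1.15 ± 0.29 (SE) on the log2 scale, or 2.22-fold, with a 95% interval of 0.50 to 1.80. By edgeR its unadjusted p was 0.003, the 79th lowest of 20541, and its adjusted p 0.761, so it did not pass over all genes. Limma-voom with quality weights gave 1.34 with an adjusted p of 0.0154, DESeq2 gave 1.15 with an adjusted p of 0.0714, and adjusted p ranged from 0.0154 to 1 over 14 alternatives. Fits that each left out 1 library kept the direction, the smallest difference being 0.92 (wild type replicate 1 left out) and the largest 1.56 (wild type replicate 3 left out).

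Marker levels of B cells and neutrophils, both of which carry CXCR4, are given beside it. The 9 B cell markers summed to 15.1 to 19.9 CPM in wild type and 26.4 to 40.3 CPM in SRA-/- libraries, and the sums did not overlap, as was the case for 5 of the 9 genes taken singly. All 9 had log2 fold changes above 0, and 4 reached an unadjusted p under 0.05 by edgeR, with 0 past the adjusted threshold there and 1 each by DESeq2 and limma-voom. Over all tested genes 48.3% lay above 0, and 3.97% did not overlap and were higher. At an unadjusted p under 0.05 by edgeR 2.32% of all tested genes were higher. Cd79a, a signalling chain of the B cell receptor, had 1.13 ± 0.27 (SE). Neutrophil markers summed to 22.9 to 69.3 CPM in wild type libraries and to 195, 61.4 and 226 CPM in SRA-/- replicates 1, 2 and 3, so SRA-/- replicate 2 lay within the wild type range. All 9 tested of 12 neutrophil genes were above 0, and 8 reached an unadjusted p under 0.05 by edgeR, with 0 past the adjusted threshold there, 4 by DESeq2 and 1 by limma-voom. S100a8, a calcium-binding protein of neutrophils, had 1.99 ± 0.40 (SE), while the defining surface marker Ly6g had 0 to 15 counts per library and the granule gene Camp 0 to 5. T and NK cell markers summed to 16.5 to 27.7 CPM against 26.6 to 34.5 CPM. In SRA-/- replicates 1, 2 and 3 Cxcr4 was at 28.1, 24.5 and 24.3 CPM. The B cell sums there were 26.4, 40.3 and 28.1 CPM, and the neutrophil sums 195, 61.4 and 226 CPM. The part of these cell markers in the Cxcr4 difference was not tested.

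Likeness between genes was measured as the root mean square difference of log2 CPM, each gene centred on its own mean over the 6 libraries. The closest of 13179 candidates to Cxcr4 was Fgd3, at 0.074. Mid1, a microtubule-associated ubiquitin ligase, followed at 0.155, and Satb1, a chromatin organiser of lymphocytes, at 0.188. The median candidate lay at 0.73. Like Cxcr4, all 3 were higher in every SRA-/- library than in every wild type library. They were chosen for their likeness to Cxcr4 over the same libraries, so this is not a separate result.

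Cxcl12, the ligand of CXCR4 (chromosome 6, 117145496 to 117158328, mm39, plus strand), varied least of the 9 genes, with an SD of log2 CPM of 0.20 over the 6 libraries. Wild type replicates 1, 2 and 3 gave 162, 151 and 124 CPM and the SRA-/- replicates 149, 166 and 115 CPM, so the wild type range lay within that of the SRA-/- libraries. The log2 fold change was -0.02 ± 0.21 (SE), with a 95% interval of -0.49 to 0.44 and an adjusted p of 0.9999 by edgeR. Per exon length the ratio of Cxcl12 to Cxcr4 was 4.85, 3.35 and 1.59 for wild type against 1.18, 1.5 and 1.04 for SRA-/- libraries. The ratio was thus lower in every SRA-/- library. Ackr3, the scavenging receptor that also binds CXCL12, had a mean of 4.79 ± 2.15 CPM in wild type and 3.51 ± 1.5 CPM in SRA-/- libraries (SD, n = 3 each), with overlapping groups. Counts summed over the gene do not separate the splice forms of Cxcl12. Markers of stellate cells and fibroblasts, a source of CXCL12, summed to 951 to 1460 CPM in wild type and 819 to 1360 CPM in SRA-/- libraries, SRA-/- replicate 3 being lowest in that sum and in Cxcl12. Wild type replicate 1 had the next lowest sum (951 CPM) but the next to highest Cxcl12 (162 CPM), and the part of these markers in the Cxcl12 values was not tested.

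**Figure D3:**
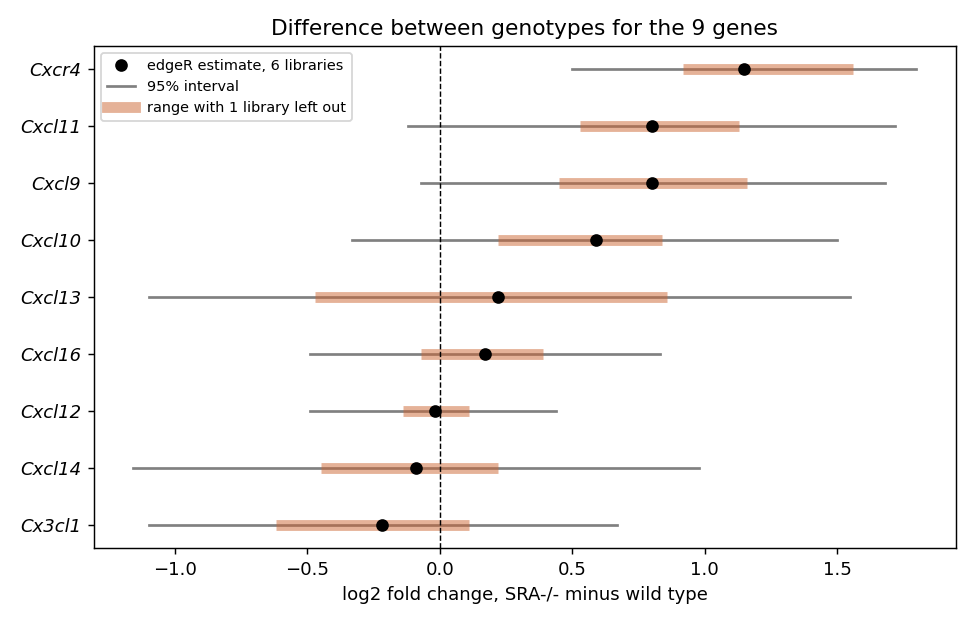
Log2 fold change of each gene, SRA-/- minus wild type, with the edgeR estimate as a point, its 95% interval as a grey line and the range over fits that each leave out 1 library as an orange bar. The interval excludes 0 for Cxcr4 alone (0.50 to 1.80), and the orange bar crosses 0 for Cxcl13, Cxcl16, Cxcl12, Cxcl14 and Cx3cl1.

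The 3 CXCR3 ligands lie side by side on chromosome 5, Cxcl9 at 92469206 to 92475938, Cxcl10 at 92494497 to 92496748 and Cxcl11 at 92507403 to 92513344 (mm39, minus strand). For Cxcl10, wild type replicates 1, 2 and 3 gave 33.8, 102 and 108 CPM and the SRA-/- replicates 172, 90.9 and 103 CPM. The low wild type value and the high SRA-/- value each came from 1 library, and the other 4 libraries lay within 90.9 to 108 CPM. Its log2 fold change of 0.59 ± 0.41 (SE, 95% interval -0.33 to 1.5) had an adjusted p of 0.9999 by edgeR. The value dropped to 0.22 when wild type replicate 1 was left out and to 0.25 when SRA-/- replicate 1 was.

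Cxcl9 stood at 6.43, 16.6 and 21.1 CPM in the wild type libraries and at 32.7, 17.9 and 26.4 CPM in the SRA-/- libraries. The groups overlapped because wild type replicate 3 exceeded SRA-/- replicate 2. Its log2 fold change was 0.80 ± 0.39 (SE, 95% interval -0.07 to 1.68), at unadjusted p = 0.0685 and adjusted p = 0.9999 by edgeR. When wild type replicate 1 was left out the value was 0.45.

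Cxcl11, with the lowest level of the 9, gave 23, 12 and 37 counts for wild type against 78, 35 and 27 for SRA-/- libraries. As CPM these were 0.790, 0.456 and 1.10 against 1.70, 1.17 and 1.23, so the groups did not overlap, but only 1.10 and 1.17 CPM separated them. The fitted log2 difference was 0.80 ± 0.41 (SE, 95% interval -0.12 to 1.72), at unadjusted p = 0.0823 and adjusted p = 0.9999 by edgeR. Limma-voom with quality weights gave 1.44, with an adjusted p of 0.130. Of the exon bases of Cxcl11, 41.7% also lie in exons of Gm2673 on the other strand, and reads were counted without strand, so reads there were assigned to neither gene. The same holds for 5.91% of the exon bases of Cxcl10, shared with Art3, and 18.3% of those of Cxcl16, shared with Zmynd15.

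Cxcl9 and Cxcl10 were the closest of the 36 pairs of these genes, at 0.19 by the likeness measure. Per exon length Cxcl10 exceeded Cxcl9 by 5.23-fold to 8.24-fold in the 6 libraries. Both genes were lowest in wild type replicate 1 and highest in SRA-/- replicate 1. The nearest of 13179 candidates to Cxcl9 was C5ar1, the receptor for the complement fragment C5a, at 0.039. Next came Lilrb4a, an inhibitory receptor of myeloid cells, at 0.148 and Fgl2 at 0.158. For Cxcl10 these were Basp1 at 0.114, Il1rn, the antagonist of interleukin 1, at 0.167 and the haematopoietic gene Plek at 0.183. Cxcl11 was less like Cxcl9 (0.57) and Cxcl10 (0.62) than those were like each other. At 0.456 to 1.70 CPM, Cxcl11 lay close to the 0.5 CPM added before taking log2, which narrows its spread. The part of this offset and of low counts in its likeness values was not tested.

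The interferon pathway was read from a list beside the CXCR3 ligands. Of 23 tested interferon target genes 20 lay above 0 in log2 fold change (against 48.3% of all tested genes), at a median of 0.16. None of them reached the threshold, with 0 at an unadjusted p under 0.05 by each of edgeR, DESeq2 and limma-voom. Gbp2, a guanylate-binding protein induced by interferon gamma, had the lowest p among them, at 0.66 ± 0.45 (SE). The median target gene was lowest in wild type replicate 1 and highest in SRA-/- replicate 1, at 0.62 log2 units above the mean over libraries, the same 2 libraries as for Cxcl9 and Cxcl10. The part of these libraries in the pathway's values was not tested. Among 14 tested ligands, receptors and signalling genes, 11 were above 0 and 1 reached an unadjusted p under 0.05 by edgeR. That gene was Ifngr2, a chain of the interferon gamma receptor, at 0.46 ± 0.20 (SE), and 0 passed over all genes by edgeR, DESeq2 or limma-voom. Ifng itself gave 10, 6 and 18 counts for wild type against 27, 38 and 6 for SRA-/- libraries, and its groups overlapped.

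**Figure D4:**
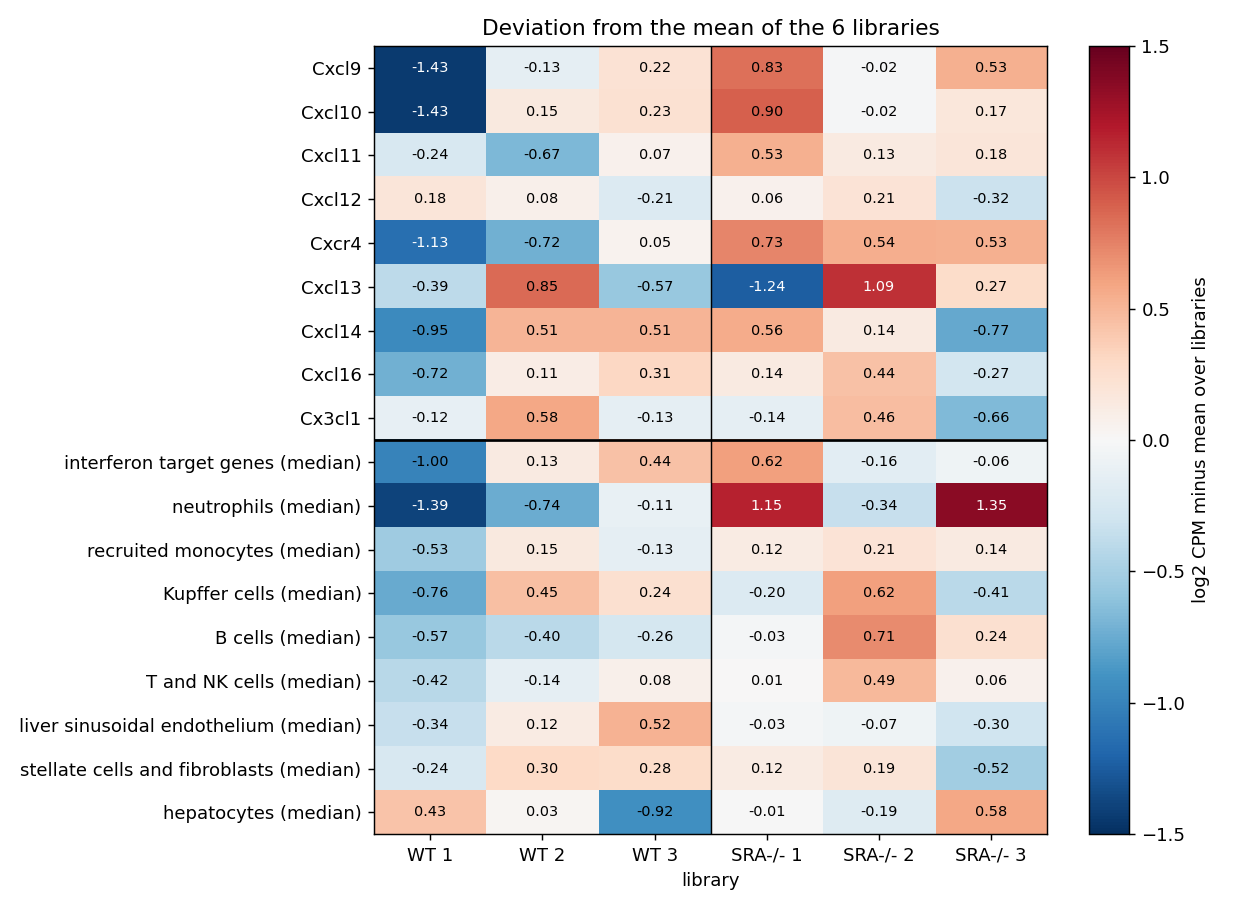
Deviation of log2 CPM from the mean over the 6 libraries, for each gene (above the line) and for the median gene of 9 lists (below it), in wild type (WT) and SRA-/- libraries. Red is above and blue below the mean. Wild type replicate 1 is the lowest library for Cxcl9 and Cxcl10 (-1.43 each), for Cxcr4 (-1.13) and for neutrophil markers (-1.39), and lies above the mean for hepatocyte genes (0.43).

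Cxcl13, the B cell attractant made in lymphoid follicles and by some macrophages (chromosome 5, 96104810 to 96108927, mm39, plus strand), varied most from library to library, with an SD of log2 CPM of 0.82. Wild type replicates 1, 2 and 3 gave 4.60, 11.5 and 4 CPM and the SRA-/- replicates 2.33, 13.7 and 7.54 CPM. The lowest and the highest of all 6 values were both in SRA-/- libraries. The log2 fold change was 0.22 ± 0.59 (SE, 95% interval -1.10 to 1.55), with an adjusted p of 0.9999 by edgeR. Its direction depended on the libraries used, from -0.47 (SRA-/- replicate 2 left out) to 0.86 (wild type replicate 2 left out), and limma-voom with quality weights gave -1.12. Summed Kupffer cell markers were highest in the libraries with the most Cxcl13, wild type replicate 2 and SRA-/- replicate 2, at 1800 and 1990 CPM. Wild type replicate 3 came next in that sum (1510 CPM) but had only 4 CPM of Cxcl13. SRA-/- replicate 3 had a lower sum (1070 CPM) and more Cxcl13 (7.54 CPM). The part of these markers in the Cxcl13 values was not tested. The candidate nearest to Cxcl13, the linker histone gene H1f1, lay at 0.452, against 0.039 to 0.13 for the nearest candidate of each of the other 8 genes.

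Cxcr5, the receptor of CXCL13 on B cells, was at 1.58, 1.37 and 0.681 CPM in the wild type libraries and at 1.81, 2.61 and 2 CPM in the SRA-/- libraries. It was higher in every SRA-/- library, with a log2 fold change of 0.82 ± 0.38 (SE) and an unadjusted p of 0.0572 by edgeR. Lymphotoxin and lymphoid homing genes include signals upstream of CXCL13. Against 48.3% of all tested genes, 7 of the 8 tested on this list lay above 0, at a median of 0.10. At an unadjusted p under 0.05 edgeR and DESeq2 gave 0 of them and limma-voom 1, against 2392 of 20541 tested genes by limma-voom. Over all genes 0 of them passed in any of these fits.

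Cxcl14, a chemokine of epithelial and stromal cells (chromosome 13, 56436456 to 56444364, mm39, minus strand), stood at 2.03, 6.45 and 6.45 CPM in the wild type libraries and at 6.70, 4.88 and 2.36 CPM in the SRA-/- libraries. Its 2 lowest values fell 1 in each genotype, in wild type replicate 1 and SRA-/- replicate 3. These were also the libraries with the highest summed hepatocyte markers (90400 and 106000 CPM), whose part in the Cxcl14 values was not tested. The log2 fold change was -0.09 ± 0.48 (SE, 95% interval -1.16 to 0.98), and its direction turned when wild type replicate 2, wild type replicate 3 or SRA-/- replicate 3 was left out. Its nearest candidates were Rhbdl1 at 0.13 and S1pr3, a receptor for sphingosine 1-phosphate, at 0.136.

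For neither membrane-anchored chemokine did the genotypes separate. Cxcl16 (chromosome 11, 70344809 to 70350810, mm39, minus strand) stood at 8.93, 16.2 and 18.7 CPM in the wild type libraries and at 16.5, 20.5 and 12.3 CPM in the SRA-/- libraries. The log2 fold change was 0.17 ± 0.29 (SE, 95% interval -0.49 to 0.83), or -0.07 when wild type replicate 1 was left out. Cx3cl1 (chromosome 8, 95498637 to 95509055, mm39, plus strand) stood at 2.34, 4.10 and 2.31 CPM in the wild type libraries and at 2.29, 3.74 and 1.45 CPM in the SRA-/- libraries. Its log2 fold change was -0.22 ± 0.40 (SE, 95% interval -1.10 to 0.67). Both genes had an adjusted p of 0.9999 by edgeR. Prelp, a matrix proteoglycan, was the candidate nearest to Cx3cl1, at 0.097.

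None of the 5 listed genes that shed or cleave these proteins passed the test. At an unadjusted p under 0.05 there were 0 by edgeR and by DESeq2. Limma-voom gave 2, against 2392 of 20541 tested genes. The sheddase gene Adam17 had 37.9 ± 3.89 CPM in wild type and 43.8 ± 3.47 CPM in SRA-/- libraries (SD, n = 3 each). Rhbdf2, a partner needed for ADAM17 to mature, had the lowest unadjusted p of the 5 by edgeR, 0.0561, at a log2 fold change of 0.45 ± 0.21 (SE). Dpp4, the peptidase that trims and inactivates CXCL10 and CXCL12, had means of 131 and 132 CPM.

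Of the 7 receptors and scavengers listed, 6 lay above 0 in log2 fold change (against 48.3% of all tested genes), at a median of 0.61. At an unadjusted p under 0.05 edgeR gave 0 of them, DESeq2 1 and limma-voom 4, and 0 passed over all genes in any of these fits. Of all 20541 tested genes edgeR gave 661, DESeq2 721 and limma-voom 2392 at that unadjusted p. Cxcr3 was scarce, with 18, 16 and 36 counts for wild type against 40, 64 and 18 for SRA-/- libraries, and its groups overlapped in CPM. Cxcr6 was at 3.81, 0.949 and 1.04 CPM against 1.59, 3.61 and 2.32 CPM, wild type replicate 1 being the highest of all. Cx3cr1 had 5 to 29 counts per library, near the floor of 6 counts. Ackr1, a chemokine-binding receptor of venular endothelium and red cells, was higher in every SRA-/- library, at 1.47 ± 0.423 CPM in wild type and 2.24 ± 0.238 CPM in SRA-/- libraries (SD, n = 3 each), with an unadjusted p of 0.0878 by edgeR. Ackr4 spread from 4.77 CPM in wild type replicate 3 to 22.3 CPM in wild type replicate 1, and the SRA-/- libraries lay between.

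Among the CXC chemokines with the ELR motif, which draw neutrophils, Cxcl1 was the 1 of 4 tested genes that passed edgeR's test over all genes, at a log2 fold change of 1.36 ± 0.17 (SE) and an adjusted p of 0.0380. Its adjusted p rose to between 0.0681 and 0.471 when wild type replicate 2 or 3 or SRA-/- replicate 1 or 3 was left out, with differences of 1.27 to 1.39. Whether its difference exceeds those of the lymphocyte-directed chemokines was not tested.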

How the data were processed

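Per the labels' protocols, total RNA was depleted of ribosomal RNA before library construction. The submitters' processing notes name FastQC, STAR, featureCounts and build mm39. The deposited values are raw counts per gene name over exons, made by the authors with featureCounts 2.0.2 on GENCODE vM26 without strand, per the file headers. Exon length came from the same files. Mates were counted singly: even values made up 68.5% to 71.9% of counts of 1 to 4, and 53.6% to 55.6% at 21 to 100.

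The test was edgeR 4.0.16 in R 4.3.3 (filterByExpr, TMM, robust quasi-likelihood fit on group), adjusted by Benjamini-Hochberg over 20541 genes at a threshold of 0.05, and tested on simulated data. The SE is the log2 fold change over the root of F. CPM uses TMM factors, and log2 CPM an offset of 0.5 CPM. Exact permutation of 3 against 3 libraries gives no p below 0.1. DESeq2 1.42.0 and limma 3.58.1 were alternatives. Named genes were the 9, their receptors, up to 3 per list by lowest p, and the 3 nearest to each of the 9 among genes with a mean of at least 1 CPM, not all of which are described. Stab2, Ly6g, Camp and Dpp4 were added after their values were seen. The 9 genes, the 18 lists and the tests were chosen with earlier results of these data known. Floors cover counting error only. Figures were drawn with matplotlib 3.10.9.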

Additional observations from a re-analysis of the deposited data

How the results depend on the processing

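Over 14 alternatives, Cxcl9, Cxcl10, Cxcl11 and Cxcr4 kept a log2 fold change above 0, and Cxcr4 had an unadjusted p under 0.05 in all 14. The count of the 9 genes past the threshold was 0 in each alternative except limma-voom with quality weights, where it was 1. Over all genes DESeq2 called 68, limma-voom 75, no filter on low counts 32 and the replicate block 5 genes, against 10, and leaving out 1 library gave 3 (SRA-/- replicate 3) to 40 (SRA-/- replicate 2). Of 173 listed genes tested 1 was called, against 6 by DESeq2, 4 by limma-voom and 0 with the replicate block, and 0 to 16 with 1 library left out. That gene, Cxcl1, was called in 9 of 14 alternatives and not with the replicate block (adjusted p 0.337) or in 4 fits that left out 1 library. The causes were not tested. With 1 library left out the log2 fold change spanned -0.14 to 0.11 for Cxcl12, -0.47 to 0.86 for Cxcl13 (-1.12 by limma-voom), -0.45 to 0.22 for Cxcl14, -0.07 to 0.39 for Cxcl16 and -0.62 to 0.11 for Cx3cl1. Same-numbered libraries did not deviate together (correlations -0.35, -0.18 and -0.19), and 0 of 6 correlated best with their own number. With the replicate block Cxcr4 had 1.24. Values below about 0.272 CPM, that of 6 counts in the smallest library, rest on very few fragments there. Whether differences at such levels can be detected was not tested.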
